A study of Mus musculus with 2 samples.

Results

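Mature neutrophils were cells of the fracture callus and of intact femur and muscle whose transcripts were rich in *S100a8* and *S100a9* and held more late than granule-gene messages. The members were selected on measured values. A cell needed at least 500 detected genes, at most 10% mitochondrial UMIs, at least 3% of its unique molecular identifiers (UMIs, each 1 captured transcript) from *S100a8* and *S100a9*, under 1% from the azurophil genes *Mpo*, *Elane*, *Prtn3* and *Ctsg*, and more UMIs of *Retnlg*, *Cxcr2*, *Il1b* and *Csf3r* than of the granule genes *Camp*, *Ngp* and *Ltf*. This rule found 311 of the 5859 cells of the series, 150 in the intact and 161 in the callus library. The genes of the rule, and any comparison with cells on its other side, are therefore given as description only.

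The study sorted tdTomato-positive cells to follow the *Clec3b* lineage into the callus, and measured them by 10× Chromium 3′ single-cell RNA-seq. All animals carried Clec3b.creERT2 and Ai14.R26.tdTomato, in which Cre made from the *Clec3b* locus switches on a red reporter once tamoxifen is given. The intact library came from uninjured femoral shafts with their muscle (treatment: none), and the callus library from the stabilized femoral fractures of the right leg (treatment: fracture), and the labels describe both specimens as taken after surgery. Tamoxifen preceded surgery by 2 weeks, surgery was at 6 weeks of age, and tissue was taken 3 weeks after surgery from 3 littermates. The specimens of the 3 animals were pooled, so each condition was 1 library, animals could not be told apart, and no test between conditions was possible. The tissues included bone with its marrow space. The study's text treats blood cells in these libraries as carried through the sort without the reporter, so the neutrophils are not to be read as cells of the *Clec3b* lineage. The tdTomato transcript was not analysed here, and *Clec3b* itself was found as 11 UMIs in 2 intact and 6 UMIs in 1 callus mature neutrophil.

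Both libraries went against the sex on their labels, which call the animals male. *Xist*, a noncoding RNA made from the silenced X of female cells, had 37 UMIs in 27 intact and 190 UMIs in 38 callus members, while the Y-linked genes *Ddx3y*, *Kdm5d*, *Eif2s3y* and *Uty* had 0 UMIs in both. In B-lineage cells of the same libraries, 78.5% (intact) and 91.1% (callus) of cells held a *Xist* UMI. The libraries shared 1 cell barcode, which belonged to no mature neutrophil.

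Neutrophils are short-lived phagocytes made in the bone marrow. During their development they fill azurophil granules first, then specific granules (lactoferrin, cathelicidin, lipocalin 2) and last gelatinase granules, and they stop dividing. Mature cells gain the chemokine receptor CXCR2 and, like earlier stages, carry the G-CSF receptor. These receptors govern their release from marrow and their recruitment to wounds, where neutrophils are among the first cells to arrive.

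The depth of each cell set how much could be read from it. The intact library held 12112002 UMIs in 1872 cells and the callus library 36714322 in 3987. The mature neutrophils held 586442 of these UMIs in the intact and 736730 in the callus library. Median depth was nearly the same, at 3723 UMIs and 1054 genes per intact cell and 3727 UMIs and 1063 genes per callus cell. Immature neutrophils, the cells that met the same limits but had more granule than late UMIs, were deeper, with medians of 7922 (intact) and 10284.5 (callus) UMIs. The lowest member had 1143 UMIs in the intact and 1361 in the callus library.

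A few members stood apart by depth, and 9 of them were in the callus. These 9 cells had between 14130 and 28448 UMIs, the next callus member had 8344, and they supplied 22.2% of all UMIs of the callus members. In the intact library 1 cell stood apart, with 11331 UMIs. Transcripts of other cell types were found in these cells. In 3 of the callus cells, 30.7%, 51.8% and 62.4% of UMIs were globin. Another held 3.73% of its UMIs from 6 muscle genes, another 2.21% from 7 fibroblast genes, and another 1.11% from 5 macrophage genes. The deep intact cell held 1.42% fibroblast UMIs and 10 of the 11 *Clec3b* UMIs found in intact members. No doublet caller was used. The counts of genes that differ between the libraries, and the log2 ratios of most genes named for that comparison, are therefore given with all members and with the 149 intact and 152 callus members of at most 10000 UMIs, a limit chosen after the depths had been seen.

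**Figure D1:**
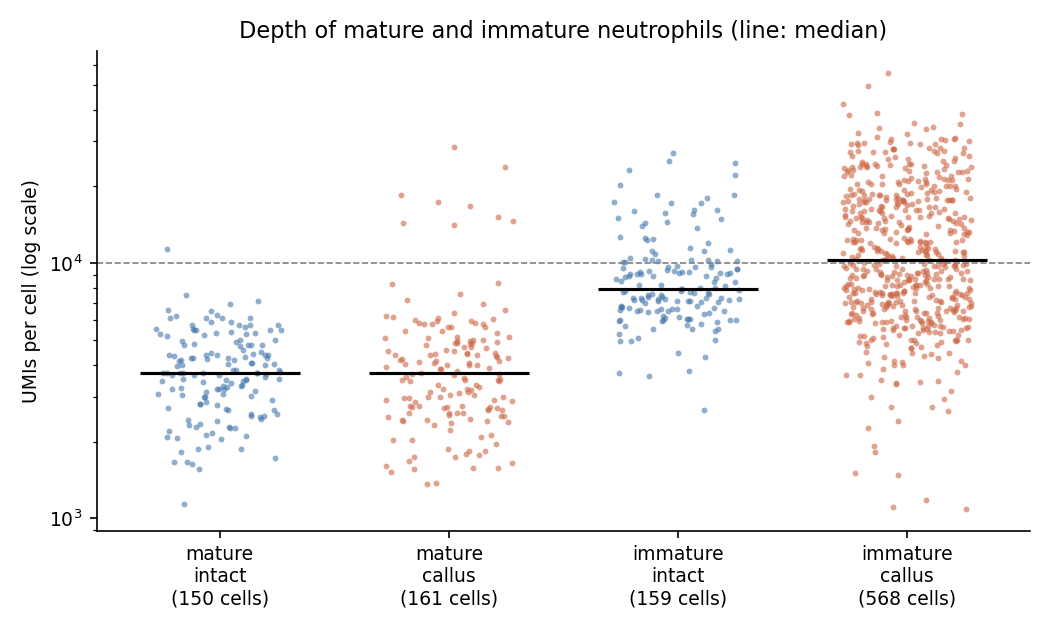
UMIs per cell (log scale) of mature and immature neutrophils in each library, with 1 point per cell, a black line at the median and a dashed line at 10000 UMIs. The medians of mature cells are 3723 and 3727, immature cells are deeper, and 9 callus members with at least 14130 UMIs lie apart from the rest.

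The markers given for this cell type were present in both libraries. *Retnlg*, a resistin-like secreted protein of neutrophils, was in 150 of 150 intact and 158 of 161 callus members, at 33596 and 27238 CPM (a gene's UMIs when the summed UMIs of the members are scaled to 1000000). *Cxcr2*, the receptor for CXCL1 and CXCL2, was at 704 CPM (95% counting interval 638 to 776) in intact and 691 (632 to 754) in callus members. *Csf3r*, the G-CSF receptor, was at 508 (452 to 569) and 616 (561 to 676) CPM, and *Il1b*, the inflammatory cytokine interleukin-1β, at 4217 (4052 to 4387) and 4544 (4392 to 4701) CPM. These 4 genes chose the cells. *Mmp8*, neutrophil collagenase, did not, and stood at 2636 (2506 to 2771) CPM in intact and 1881 (1784 to 1983) CPM in callus members. All intervals here cover counting error only, not differences between animals.

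Few cells lay near the *S100a8* and *S100a9* limit, and lowering it to 1% gave 151 intact and 172 callus members. More lay near the split of late and granule UMIs. Asking for late UMIs above 2 times the granule UMIs left 128 and 138 members. In the intact library the lowest member had 3.08% of UMIs from *S100a8* and *S100a9*, and the nearest cell outside had 1.31%. In the callus these values were 3.59% and 2.56%. The share of granule UMIs among late plus granule UMIs reached 49.9% (intact) and 49.2% (callus) among members and began at 50.2% and 50.6% among immature neutrophils, so this border cut through a continuous range. Most members lay far from it by this share. In 77 intact and 90 callus members the share was under 5%, and 41 and 37 members had no granule UMI, whereas 25 and 30 were above 30%. A share can rest on few UMIs. The lowest number of late UMIs in a member was 20 in the intact and 2 in the callus library. A callus member of 18501 UMIs, with 35 *Mki67* UMIs, was selected on 2 late and 0 granule UMIs.

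Mature cells made up 12.4% (150 of 1207, exact Clopper-Pearson 95% interval 10.6 to 14.4) of the intact cells that passed the gene and mitochondrial limits and 4.89% (161 of 3295, 4.18 to 5.68) of those of the callus. Among mature plus immature neutrophils, 48.5% (42.8 to 54.3) were mature in the intact and 22.1% (19.1 to 25.3) in the callus library. The tdTomato gate, the tissue taken and the condition can each set these shares and cannot be told apart here.

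*S100a9* and *S100a8*, the subunits of calprotectin, were the most abundant transcripts, with 168989 and 153343 CPM in intact and 123349 and 118398 CPM in callus members, and both are rule genes. They were followed by *Retnlg*, the actin-binding *Tmsb4x* (23109 and 25237 CPM), the nuclear RNA *Malat1* (15464 and 14659), *S100a6* (12417 and 10705) and *Actb* (12353 and 10419). *Gm42418*, *Fth1* (the ferritin heavy chain), *S100a11*, *Lyz2* (lysozyme), *Ngp*, *G0s2* (an inhibitor of lipolysis) and *Lcn2* completed the leading 15 genes by mean CPM, together with the globin gene *Hbb-bs*, 98.9% of whose callus UMIs lay in the 9 deep cells. *Retnlg* and *Ngp* are rule genes too. All of these except *Hbb-bs* were within 2-fold between the libraries.

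The other side of the rule was used to place the members along neutrophil development. Of 3147 genes with at least 50 UMIs over mature and immature cells of the intact library, 19.4% were at least 2-fold higher and 12.8% at least 2-fold lower in mature cells. In the callus 7291 genes reached 50 UMIs, 14.6% of which were higher and 22.4% lower. The balance of higher and lower depends on the processing. With rule and mitochondrial genes left out of the total, 408 were higher and 609 lower in the intact library. Counted by the bound of the counting interval, 627 were higher and 380 lower in the callus. The same 495 genes were higher and the same 267 lower by at least 2-fold in both libraries, out of 3147 measured in both, and 7 differed by 2-fold in opposite directions. Because the rule split the cells along this very axis, nothing is read from these counts beyond which genes went with it.

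Outside the rule genes, those furthest above immature cells in both libraries included chemoattractants, stefins and early inflammatory genes. *Jaml*, an adhesion molecule of migrating leukocytes, stood at 295 CPM in mature against 1.36 in immature cells of the intact library and at 214 against 2.88 in the callus. *Ccl6*, a CC chemokine, stood at 1859 against 29.9 and at 1098 against 14.004 CPM, and *Cxcl2*, a neutrophil-attracting chemokine, at 4613 against 128 and 4167 against 36.0. The stefin A-type cysteine protease inhibitors *Cstdc4* and *Stfa2l1*, the interferon-induced membrane protein gene *Ifitm1*, *H2-Q10*, *Pla2g7* (which degrades platelet-activating factor), *Ptgs2* (cyclooxygenase 2) and *Nlrp3* (an inflammasome sensor) completed the leading 10, with log2 ratios between 4.84 and 6.79.

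At the other end were genes of earlier stages. *Chil3*, a chitinase-like granule protein, was at 58.0 CPM in mature against 3194 in immature cells of the intact library and at 191 against 5852 in the callus, where 77 of its 141 UMIs lay in 1 member and it was at 105 CPM without the deep cells. *Fcnb*, a ficolin of immature granules, had 1 UMI in intact and 2 in callus members, and *Orm1* had 0 in both, which with a floor of 3 UMIs puts it at least 4.96 (intact) and 5.59 (callus) log2 units below immature cells. The others were *Zmpste24*, *Lta4h* (leukotriene A4 hydrolase), *Pclaf*, *Stmn1*, and the histone genes *Hist1h1b*, *Hist1h1d* and *Hist1h4d*, the last 5 being genes of dividing cells.

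*Cxcl2* and *Ptgs2* were higher in mature cells, and the specific granule genes *Ngp* and *Lcn2* in immature cells. *Ngp* is a rule gene, so the selection helped to set its direction. The promoters of these genes are shown as examples from both ends. They are the 250 bases before the RefSeq start (build GRCm38.p6), 5′ to 3′ on the gene's own strand. Capitals mark matches on either strand to an NF-κB-type motif, GGGAA and CC with any 3 bases between, or to a C/EBP-type motif, TTGCNNAA, N being any base. *Cxcl2* (chr5:90903649-90903898, plus strand) held 2 overlapping matches of the first, *Ptgs2* (chr1:150099781-150100030, plus strand) 1 match of the second, *Ngp* (chr9:110419558-110419807, plus strand) 2 matches of the second and *Lcn2* (chr2:32387740-32387989, minus strand) 1 match of the second.
Cxcl2: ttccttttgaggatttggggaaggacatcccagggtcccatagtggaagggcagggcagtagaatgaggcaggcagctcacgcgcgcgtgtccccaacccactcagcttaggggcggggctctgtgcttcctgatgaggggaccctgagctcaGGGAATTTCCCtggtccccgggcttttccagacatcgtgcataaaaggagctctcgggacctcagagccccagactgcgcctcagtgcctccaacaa
Ptgs2: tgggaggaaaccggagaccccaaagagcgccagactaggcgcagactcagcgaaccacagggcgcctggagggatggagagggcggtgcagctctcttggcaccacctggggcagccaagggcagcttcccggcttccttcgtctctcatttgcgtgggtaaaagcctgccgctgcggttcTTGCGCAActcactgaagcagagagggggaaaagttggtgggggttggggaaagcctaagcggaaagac
Ngp: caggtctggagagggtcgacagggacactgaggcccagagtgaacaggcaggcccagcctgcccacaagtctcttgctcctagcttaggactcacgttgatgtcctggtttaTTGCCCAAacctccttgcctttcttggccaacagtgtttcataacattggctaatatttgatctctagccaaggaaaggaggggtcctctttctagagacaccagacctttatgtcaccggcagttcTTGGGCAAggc
Lcn2: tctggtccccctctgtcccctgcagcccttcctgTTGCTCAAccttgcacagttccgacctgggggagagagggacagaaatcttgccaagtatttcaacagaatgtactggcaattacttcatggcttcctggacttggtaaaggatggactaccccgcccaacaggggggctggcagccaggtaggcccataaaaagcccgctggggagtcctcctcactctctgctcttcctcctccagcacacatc

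In the same window of 250 bases before the start, searched for all genes of the RefSeq table, 5.62% of 27025 held the NF-κB-type and 10.8% the C/EBP-type motif, and 3.46% held an interferon-response type motif, TTTC and TTTC with any 2 bases between. Of the 495 genes higher in mature cells of both libraries, 392 had a promoter there, and 9.18%, 11.99% and 6.63% held the respective motifs. Of the 267 lower genes 210 had one, with 7.62%, 14.3% and 2.86%. The promoter windows of *Il1b* and *Camp* held neither of the first pair. A match describes letters, not binding.

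Granule genes are described first, beside 19.4% (intact) and 14.6% (callus) of all measured genes that were higher and 12.8% and 22.4% that were lower. Since granule and azurophil genes chose the cells, the direction of these lists is no finding. Of 12 specific granule genes, 7 in the intact and 8 in the callus library were at least 2-fold lower in mature than in immature cells and 0 higher, with median log2 ratios of −1.38 and −1.74 beside 0.18 (intact) and −0.18 (callus) for all measured genes. *Lcn2* stood at 5136 against 16910 CPM in intact and 4168 against 13887 CPM in callus cells, and *Cybb*, the core of the NADPH oxidase, at 488 against 1682 and 561 against 1977. *Pglyrp1* and *Hp* were within 2-fold in both. The list contains the rule genes *Camp*, *Ngp* and *Ltf*. Of 11 measured gelatinase granule and secretory vesicle genes, 5 (intact) and 7 (callus) were higher and 0 lower. *Mmp9*, gelatinase B, stood at 2172 against 928 and 2191 against 552 CPM, *Slpi*, a protease inhibitor, at 2655 against 848 and 2231 against 349, and *Mmp8* at 2636 against 1855 and 1881 against 583. Of 9 azurophil genes, which include the 4 that limited the selection, 8 reached 50 UMIs in the callus and 6 of those were lower and 1 higher, while none reached it in the intact library. The higher one was *Ctsc*, a protease that activates the azurophil serine proteases, and 86.0% of its callus UMIs lay in the deep cells.

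Receptors were described on the same axis, beside the 19.4% and 14.6% of all measured genes that were higher. Of the chemoattractant and growth factor receptors, a list that holds the rule genes *Cxcr2* and *Csf3r*, 12 of 15 (intact) and 14 of 18 (callus) were at least 2-fold higher and 1 lower in each. *Il1r2*, a decoy receptor for interleukin-1, was at 1095 against 148 CPM in the intact and 581 against 52.3 in the callus library, *Ccr1* at 675 against 156 and 681 against 83.2, and *C5ar1*, the complement C5a receptor, at 356 against 141 and 354 against 92.4. Of pattern recognition and Fc receptors, 10 of 16 and 11 of 17 were higher and 1 and 0 lower, led by the C-type lectin gene *Clec4d* (556 against 19.7 and 441 against 11.3 CPM) and *Trem1* (1006 against 212 and 875 against 122). Among adhesion genes, 4 of 10 and 5 of 11 were higher.

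Of all lists, cytokines and chemokines had the highest medians, at log2 5.17 in the intact and 4.06 in the callus library. Of measured cytokine and chemokine genes, 6 of 7 (intact) and 9 of 10 (callus) were higher in mature cells and 0 lower, beside 19.4% and 14.6% of all measured genes that were higher. The list as a whole summed to 11965 CPM in mature against 523 in immature cells of the intact and 11267 against 264 in the callus library. Most of this was *Cxcl2* and the rule gene *Il1b*. Of the ligands able to act on stromal and bone cells, *Osm* (oncostatin M) was at 677 against 156 and 497 against 81.8 CPM, and *Thbs1* (thrombospondin 1) at 1721 against 784 and 1238 against 306. Of that list 5 of 8 genes were higher in the intact library, and in the callus 4 of 8 were higher and 1 lower, beside the same shares. Its median log2 ratios were 1.09 and 1.46.

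The counts for inducible genes, regulators and effectors stand beside 19.4% higher and 12.8% lower of all measured genes in the intact, and 14.6% and 22.4% in the callus library. Of 21 (intact) and 25 (callus) immediate-early and heat shock genes, 14 and 20 were higher in mature cells and 0 and 2 lower. Among the higher ones were *Junb* (3155 against 255 and 2065 against 134 CPM), *Dusp1*, a phosphatase of MAP kinases (1797 against 84.2 and 1269 against 50.8), and *Egr1*. Collagenase digestion preceded the sort, and its part in these levels was not tested. Of interferon response genes, 9 of 15 and 17 of 24 were higher and 0 and 2 lower. Of transcription factors, 8 of 14 were higher and 2 lower in the intact library, and 9 of 19 higher and 3 lower in the callus. *Cebpb*, the C/EBP factor of late and emergency granulopoiesis, was at 2855 against 406 and 2256 against 240 CPM. *Cebpe*, the factor of the granule stage, was at 54.6 against 283 and 40.7 against 506 CPM. *Mcl1*, on which neutrophil survival depends, was at 1599 against 314 and 1416 against 221 CPM. NADPH oxidase genes (1 of 7 higher and 1 lower in each library), hypoxia and glycolysis genes (3 of 16 higher and 3 lower in intact, 2 of 19 higher and 1 lower in callus) and cytoskeletal genes (7 of 22 higher in each, and 0 and 1 lower) had medians between −0.05 and 0.61. Cell cycle genes were at least 2-fold lower in 11 of 12 and in 16 of 16 measured. In the callus 98.4% of the 124 *Mki67* UMIs of members lay in the 9 deep cells.

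**Figure D2:**
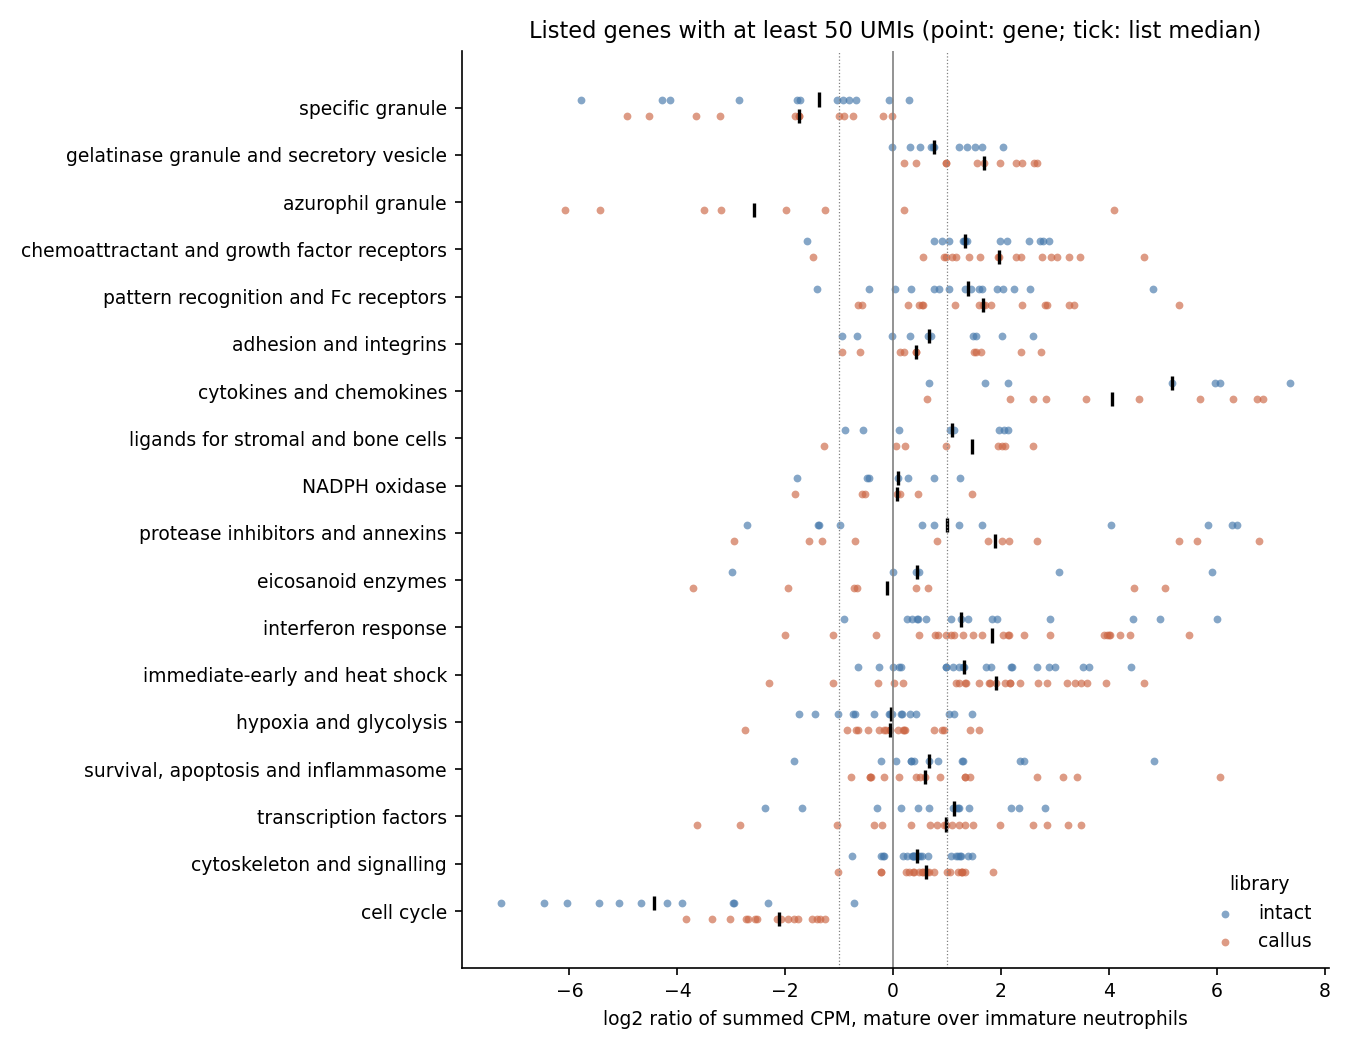
Log2 ratio of summed CPM in mature over immature neutrophils for each gene of 18 lists (rows) with at least 50 UMIs, intact in blue and callus in orange, with a black tick at each list's median and dotted lines at 2-fold. Cytokines and chemokines lie furthest to the right. Cell cycle, specific granule and (measured in the callus only) azurophil granule genes lie to the left. This describes the axis on which the cells were split.

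The mature neutrophils also varied among themselves along the granule share that the rule used. Members of at most 10000 UMIs were ordered in each library by the share of granule UMIs and divided into 3 equal groups of 49 to 51 cells, whose median shares were 30.3%, 4.72% and 0% in the intact and 30.8%, 2.84% and 0% in the callus library. Depth went with this order, from medians of 5073 to 2990 UMIs in intact and from 4889 to 2737 in callus members. *Mmp8* decreased from 3682 CPM (95% counting interval 3446 to 3931) in the high-granule to 2543 (2314 to 2789) in the middle and 1225 (1056 to 1414) in the low-granule group of the intact library. In the callus it went from 3330 (3108 to 3563) to 1731 (1543 to 1935) and 915 (765 to 1086). *Lcn2* and *Anxa1*, which encodes the pro-resolving annexin A1, had the same order in both libraries. None of the neighbouring *Mmp8* intervals overlapped. *Mmp8* thus stood above immature cells in the members as a whole and was lowest in those with the fewest granule UMIs. The rule gene *Retnlg* also was lowest there, at 37607, 36845 and 25747 CPM in intact and 35620, 35165 and 24166 in callus members.

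Other genes ran the opposite way. *Cxcl2* was at 2289 (2103 to 2486), 4580 (4270 to 4905) and 8547 (8090 to 9024) CPM in the high, middle and low-granule groups of intact members and at 2904 (2698 to 3123), 4475 (4170 to 4796) and 8547 (8074 to 9040) in callus members. The low-granule groups of both libraries thus held the same *Cxcl2* level. *Cebpb* went from 1655 to 4814 CPM in intact and from 1267 to 5109 in callus members, *Junb* from 1246 to 5574 and from 969 to 5060, and *Ccl6* from 748 to 3353 and from 592 to 2467. *Ptgs2*, *Ifitm1*, *Nlrp3* and *Jaml* also stood highest in the low-granule group in both. *Mmp9* was highest in the middle group of intact members, with 2178, 2481 and 1945 CPM. In callus members it declined, from 2948 (2740 to 3168) over 2576 to 2124 (1892 to 2377) CPM. *Tmsb4x* stayed between 22849 and 24378 CPM in intact and between 27527 and 28248 in callus members.

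**Figure D3:**
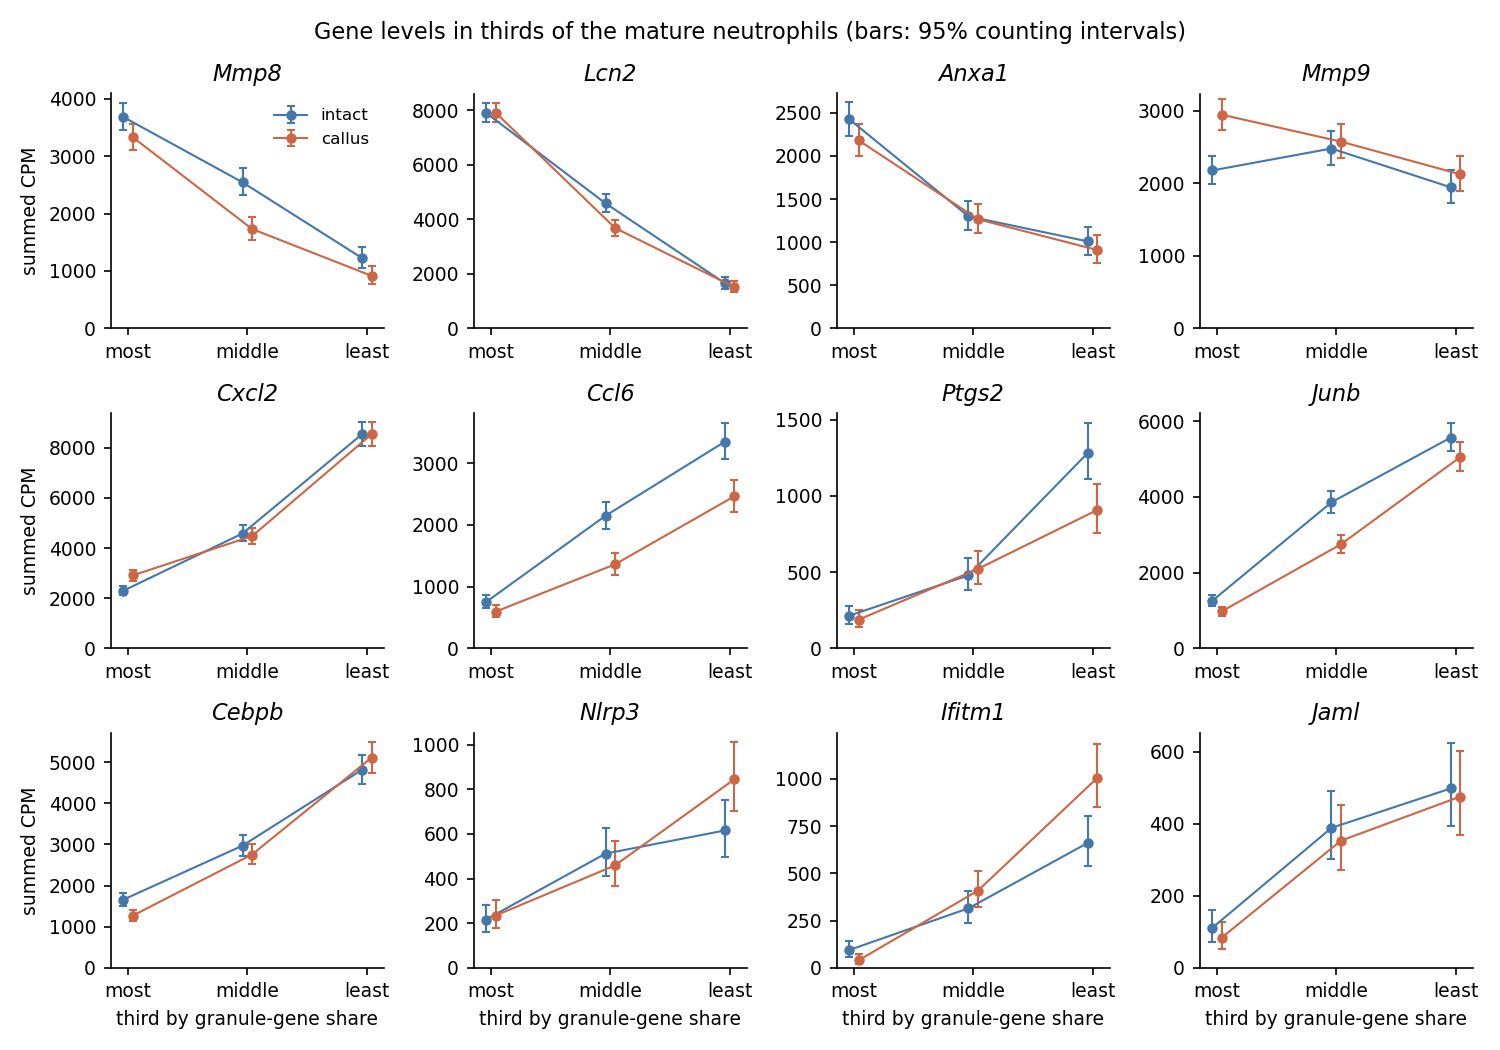
Summed CPM of 12 genes in 3 equal groups of mature neutrophils of at most 10000 UMIs, ordered from most to least granule-gene share, intact in blue and callus in orange, with 95% counting intervals. *Mmp8*, *Lcn2* and *Anxa1* decline towards the low-granule cells in both libraries, while *Cxcl2*, *Ccl6*, *Junb* and *Cebpb* climb, *Cxcl2* to 8547 CPM in both.

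Some transcripts were spread over nearly all members and others sat in a few. *Mmp9* was in 148 of 150 intact and 159 of 161 callus cells. *Cxcl2* was in 115 and 108 cells, and its top 5 cells held 25.6% and 22.8% of its UMIs. *Cstdc4* was in 29 and 36 cells, of which 18 and 18 also held *Stfa2l1*, against 28.1% and 30.4% of the cells without *Cstdc4*. The interferon genes *Isg15* and *Rsad2* were in 32 and 22 intact and 37 and 24 callus cells, with 12 and 11 cells holding both. Over 30 interferon response genes, the 8 intact cells with the most UMIs held 28.04% and the 9 callus cells 26.9% of the list's UMIs. These shares are not scaled for depth, and the 9 deep callus cells held 22.2% of all UMIs of callus members. Per 10000 UMIs, the list had a median of 12.3 and a highest value of 300 in intact cells. In callus cells these values were 15.6 and 395. *Ccl4*, a chemokine for monocytes and T cells, was in 15 intact and 26 callus cells, with at most 19 and 73 UMIs in a cell.

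Shares of cells with a transcript were compared after drawing 2000 UMIs from each cell, which left out 10 intact and 17 callus members. *Cxcr2* was found in 72.9% of 140 intact and 77.8% of 144 callus members, *Nlrp3* in 49.3% and 48.6%, *Cxcl2* in 69.3% and 63.9%, and *Ptgs2* in 70 intact members and in 53 (36.8%) callus members. Without thinning these shares were 88.0% and 91.3%, 66.0% and 60.9%, 76.7% and 67.1%, and 62.0% and 47.2%. In B-lineage cells, which should lack these genes and had median depths of 2909 and 3376.5 UMIs, the thinned shares were 0.382% and 0.164% for *Cxcr2*, 0.382% and 0.328% for *Nlrp3*, 1.15% and 0.164% for *Cxcl2*, and 1.15% and 0.328% for *Ptgs2*. *Cxcr2* is a rule gene, so the selection helped to set its shares. For *Nlrp3*, *Cxcl2* and *Ptgs2* the shares in mature neutrophils were above those in B-lineage cells. *Pi16*, best known as a fibroblast gene, was in 32.9% of intact and 27.1% of callus members against 4.58% and 1.31% of B-lineage cells, and 52.7% and 43.5% of members without thinning. It was in 22.0% and 13.9% of immature neutrophils, and in 59.7% and 57.4% of these deeper cells without thinning.

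Whether mature neutrophils of the callus differed from those of intact tissue was the comparison the design allowed. With all members, 256 of 2566 genes with at least 50 UMIs (9.98%) were at least 2-fold higher in callus cells and 29 (1.13%) at least 2-fold lower, around a median log2 ratio of 0.13. The deep cells carried most of this. Of the 256 higher genes, 156 had over 50% of their callus UMIs in the 9 deep cells. Among members of at most 10000 UMIs, 67 of 2205 genes (3.04%) were higher and 17 (0.771%) lower, with a median of 0.14. Of the 256 and 29 genes, 56 and 10 remained. The 10 furthest above intact with all members were *S100a4*, *Mki67*, *Hbb-bt*, *Hba-a1*, *Hba-a2*, *Crip1*, *Cd74*, *Apoe*, *Hbb-bs* and *Prdx2*, and for each of them the deep cells held at least 81.1% of the callus UMIs.

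**Figure D4:**
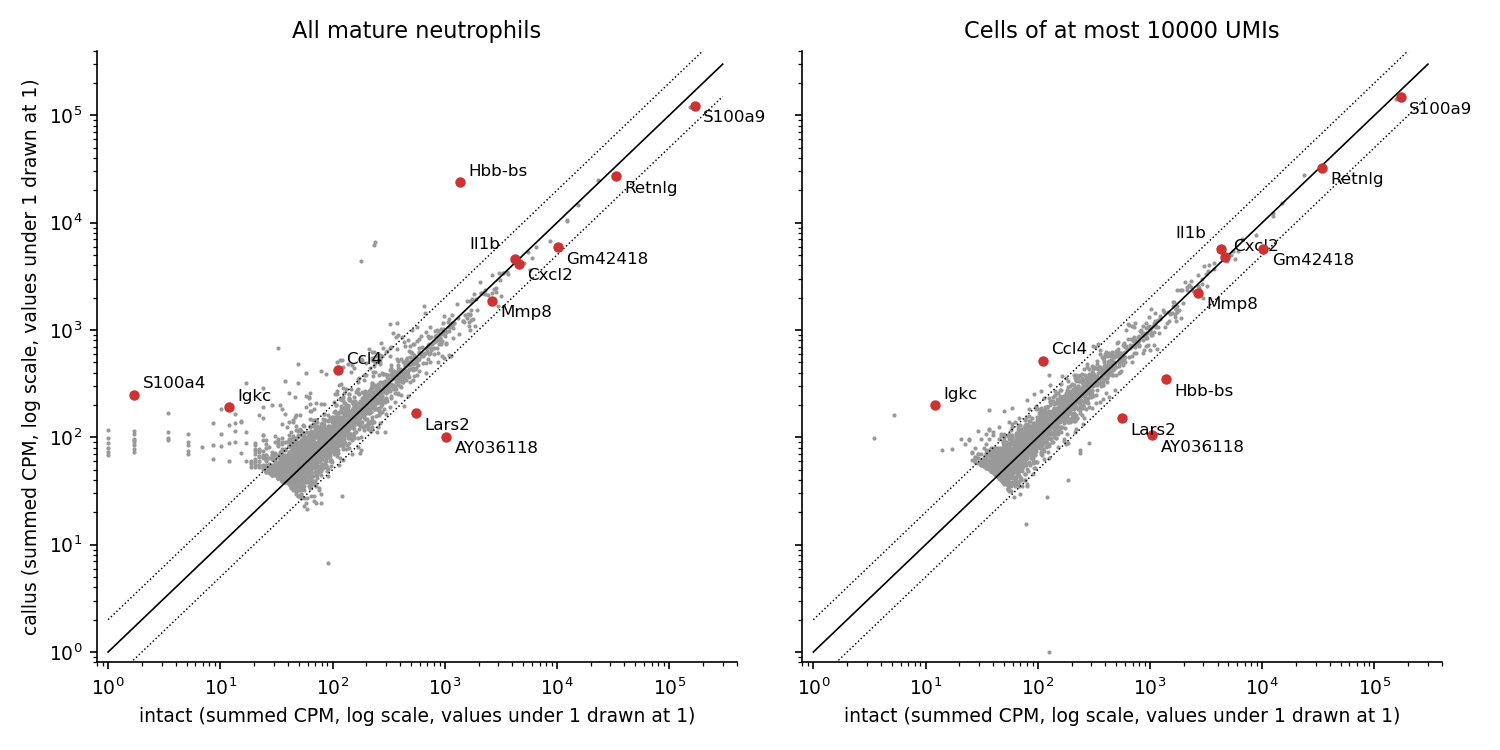
Summed CPM of each gene in intact (x) and callus (y) mature neutrophils on log axes, for all members (left) and members of at most 10000 UMIs (right), with genes of at least 50 UMIs, the line of equality and dotted lines at 2-fold. *Retnlg*, *Cxcl2*, *Il1b* and *Mmp8* lie within 2-fold in both panels, *AY036118* and *Lars2* stay below, *Ccl4* above, and *Hbb-bs* moves from above to below the line.

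The listed genes differed between the libraries about as often as all genes did. Of 189 listed genes measured in members of at most 10000 UMIs, 7 were at least 2-fold higher in callus cells and 0 lower, beside 3.04% and 0.771% of all genes, and the median log2 ratio was 0.14 in both. With all members the counts were 21 higher and 0 lower of 207, beside 9.98% and 1.13% of all genes, and 7 of the 21 were cell cycle genes. No specific granule, gelatinase granule, NADPH oxidase, transcription factor or cytoskeletal gene was 2-fold apart in members of at most 10000 UMIs. *Cxcl2* was at 4658 CPM in intact and 4802 in callus cells of that depth (log2 ratio 0.04, 95% counting interval −0.03 to 0.12, and −0.15 with all members). *Mmp9* was at log2 0.25 (0.01 with all members), *Cxcr2* at 0.23 (−0.03), *Osm* at −0.25 (−0.45), *Nlrp3* at 0.14 (−0.12) and *Il1b* at 0.42 (0.11).

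Some of the listed genes were lower in callus members by less than 2-fold, while others, such as *Il1b* and *Mmp9*, were not. *Il1r2* was at 1095 CPM (1012 to 1183) in intact and 581 (527 to 639) in callus members, a log2 ratio of −0.91, and −0.59 (−0.77 to −0.41) without deep cells. *Ccl6* was at 1859 and 1098 CPM (log2 −0.76, and −0.53 without deep cells), *Junb* at 3155 and 2065 (−0.61 and −0.33), *Mmp8* at 2636 and 1881 (−0.49 and −0.26), and *Ptgs2* at 571 and 379 (−0.59 and −0.30). These intervals did not include 0, but they hold counting error only. In the ordered groups, *Ccl6* was lower in callus than in intact members in each of the 3, with intervals apart in the middle and low-granule groups.

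Some of these and other abundant genes were further apart among immature neutrophils, though *Ptgs2* was not, at log2 0.28 there. *Mmp8* was at 1855 CPM in intact and 583 in callus immature cells (log2 −1.67), against −0.49 in mature cells (−0.26 without deep cells). *G0s2* was at log2 −1.64 in immature and −0.65 in mature cells (−0.32 without deep cells), *Fth1* at −1.35 and −0.35 (−0.19), and *S100a6* at −1.21 and −0.21 (−0.01). The immature cells of the libraries also differed in genes of early and dividing cells. The cell cycle gene *Mki67* was in 10.1% of intact and 31.7% of callus immature cells after drawing 2000 UMIs from each cell. *Fcnb* was at 213 and 926 CPM there. The part of such differences in these ratios was not tested. Whether the ratios of mature and immature cells differ from each other could not be tested with 1 library per condition.

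Among genes that stayed at least 2-fold higher in callus members of at most 10000 UMIs, *Ccl4* was at 111 CPM in intact and 520 in callus cells (log2 2.22, 1.83 to 2.64, and 1.94 with all members). In immature neutrophils it had only 0.679 and 8.24 CPM, a log2 ratio of 3.60 whose intact value came from 1 cell. In B-lineage cells it was at log2 −0.23, and in classical monocytes at 975 CPM in intact and 697 in callus cells. Among members, the top 3 callus cells held 165 of 314 *Ccl4* UMIs and the top 3 intact cells 38 of 65. After thinning it was in 7.14% of intact and 12.5% of callus members, against 0.763% and 2.30% of B-lineage cells, and in 10.0% and 16.1% of members without thinning. *Wfdc17*, a small secreted protease inhibitor homologue, was at 108 and 272 CPM (log2 1.34, 0.90 to 1.78, and 1.26 with all members), in 26 intact and 33 callus cells of that depth. In callus members it had 3.97 CPM in the high-granule and 587 in the low-granule group, and in intact members 36.8 and 275.

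Other genes in this set belonged to muscle, B cells and the general machinery of the cell. The fast-muscle contraction genes *Tpm1*, *Tnnc2*, *Mylpf* and *Acta1* stood at log2 ratios between 1.48 and 2.31 in members of at most 10000 UMIs and between 2.41 and 3.16 with all members, against 0.02 to 0.42 in B-lineage cells. Among callus members of at most 10000 UMIs, the top 5 cells for the gene held 50.8% of the *Acta1* and 46.2% of the *Tpm1* UMIs. The immunoglobulin gene *Igkc* was at 4.03, and at 4.003 with all members, but 105 of its 114 callus UMIs at that depth lay in 3 cells. In members of at most 10000 UMIs the 6-gene muscle list summed to 261 CPM in intact and 816 in callus members and the 8-gene B-cell list to 55.6 and 453. Fibroblast markers summed to 26.1 and 269 CPM and dendritic cell markers to 26.1 and 143, while the 5 macrophage markers were at 17.4 in both. Endothelial markers went the other way, at 59.1 CPM in intact and 1.74 in callus members, with 79.4% of their intact UMIs in 1 cell. With all members, *Cd79b*, *Ms4a1* and *Vpreb3* of the B-cell list were at 0 in the intact but not in the callus library, and 3 or more muscle markers were seen in 4 intact and 33 callus members. Osteoclast markers were at 0 UMIs in intact and 15 UMIs in callus members, and all 5 NK markers at 0 in callus members. In callus members the osteoclast markers summed to 20.4 CPM, and to 3.49 CPM without the deep cells. Classical monocyte markers summed to 532 and 939 CPM with all members, and to 543 and 673 CPM without the deep cells. They were led by *Ly6c2*, and in intact members *Ccr2*, *F13a1* and *Ms4a6c* were at 0. The part of such transcripts in the differences was not tested.

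*Rpl17* and *Rplp1*, ribosomal protein genes, were higher in callus members by log2 1.596 and 1.456 without deep cells (1.82 and 2.19 with all members), and in B-lineage cells of the same libraries by 1.25 and 1.56. The 85 ribosomal protein genes summed to 22093 CPM in intact and 27786 in callus members of at most 10000 UMIs, and to 199424 and 230839 CPM in B-lineage cells. With all members they summed to 24055 and 42192 CPM, and in immature neutrophils to 32100 and 61171. The 13 mitochondrial genes summed to 2419 and 4688 CPM in members of at most 10000 UMIs, and to 21621 and 24318 in B-lineage cells. With all members they summed to 2592 and 7019 CPM, and in immature neutrophils to 3211 and 8364.

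Some genes lower in callus members were lower in other cells of that library too. *AY036118* was at 1037 CPM (956 to 1123) in intact and 102 (80.1 to 128) in callus members, a log2 ratio of −3.35 (−3.71 to −3.00, and −3.32 without deep cells), and was found in 144 of 150 intact but 54 of 161 callus cells. Its ratio was −3.24 in immature neutrophils and −3.41 in B-lineage cells. This long noncoding RNA gene lies at chr17:39847113-39848035 on the minus strand, within the interval of *Gm42418* (chr17:39846958-39848788, plus strand), and both are known to collect reads of ribosomal RNA. *Gm42418* itself was at 10226 and 5913 CPM. *Lars2*, a mitochondrial leucyl-tRNA synthetase gene, was at log2 −1.72 in members (−1.89 without deep cells) and −1.60 in B-lineage cells. With 1 library per condition, a difference of preparation and one of tissue cannot be told apart.

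The other lower genes are given beside their ratios in B-lineage cells and in immature neutrophils. *Entpd1* (CD39, which breaks down extracellular ATP) was at 431 CPM in intact and 194 in callus members (log2 −1.15, and −0.85 without deep cells), against −0.51 in B-lineage cells and −0.32 in immature neutrophils. *Mpp7* was at −1.30 (−1.02 without deep cells) against 0.19 and −0.70. *Sik1*, a salt-inducible kinase gene, was at −1.14 (−0.92 without deep cells) against −0.80 and −1.31, *Nt5c2* at −1.05 (−0.84) against −0.65 and −0.76, and *Pacs1* at −1.04 (−0.87) against −0.18 and −0.90. *Gm14548* was at −1.25 (−1.05) and *Gm20406* at −1.09 (−0.90), and in immature neutrophils at −2.26 and −1.83. In B-lineage cells both had at most 1.80 CPM. *Gm14548* was at log2 −0.99 there on these few UMIs, and *Gm20406* had too little for a ratio. Without the deep cells *Entpd1*, *Sik1*, *Nt5c2*, *Pacs1* and *Gm20406* were thus less than 2-fold apart.

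Globin transcripts changed direction with the deep cells. *Hbb-bs*, adult β-globin, was at 1368 CPM in intact and 23980 in callus members, a log2 ratio of 4.13, but 17463 of its 17667 callus UMIs lay in 3 cells. Without the deep cells it was at 1377 and 349 CPM, a log2 ratio of −1.98 (−2.21 to −1.76), and *Hba-a1*, *Hba-a2* and *Hbb-bt* reversed too. In single cells the 4 globin genes ran from 3.69 to 86.7 UMIs per 10000 in intact members with a median of 18.7, and none of the 150 cells was without them. In callus members the median was 2.89 per 10000, 48 of 161 cells had none and 4 exceeded 100. *Hbb-bs* was also lower in callus than in intact B-lineage cells (log2 −0.999) and immature neutrophils (log2 −1.29). It was higher in callus monocytes, at 563 CPM in intact and 2484 in callus cells. No deep cells were left out of these sums. In immature neutrophils the median of the 4 globin genes was 9.19 per 10000 in intact and 1.79 in callus cells, and 2 and 6 cells exceeded 100. *Alas2*, a heme synthesis gene of red cell precursors, was at 0 in intact members.

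**Figure D5:**
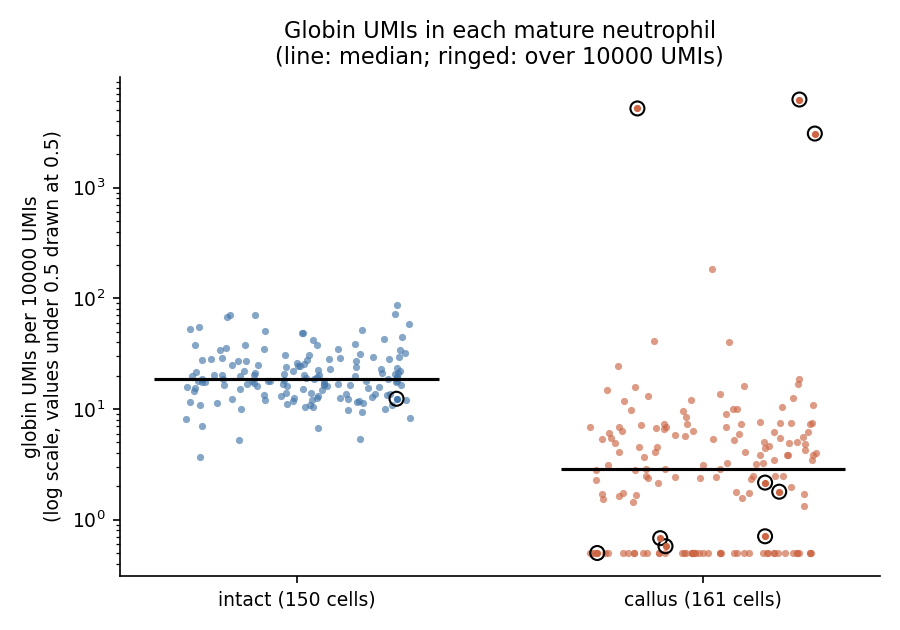
Globin UMIs (4 genes) per 10000 UMIs in each mature neutrophil on a log axis, with values under 0.5 drawn at 0.5, lines at the medians (18.7 intact, 2.89 callus) and rings around cells over 10000 UMIs. All intact cells hold between 3.69 and 86.7, while the callus median is lower and 48 callus cells hold none, and in 3 ringed callus cells globin reached 30.7%, 51.8% and 62.4% of UMIs.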

How the data were processed

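Cells sorted for tdTomato were measured by 10× Chromium 3′ (V3) single-cell RNA-seq, 1 library of intact bone and muscle and 1 of fracture callus. The authors deposited Cell Ranger (6.0.0, per the file headers) UMI counts per gene and cell on mm10 (per the labels), without normalization, and their text names Seurat for later steps that were not used here. Of 32285 gene identifiers, 32158 (99.6%) were in GENCODE M21 (GRCm38), the source of positions. Promoters were taken from RefSeq.

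The limits on cells removed 665 intact and 692 callus cells, and no doublets were removed. UMIs were summed over the members of a library and given as CPM with exact Poisson intervals. Ratios have exact conditional intervals, and shares Clopper-Pearson intervals, at 95% and for counting error only. A gene with 0 UMIs was given a floor of 3. A difference of at least 2-fold among genes with at least 50 UMIs was counted, with no test. Named genes were the 15 highest by CPM, the 10 furthest each way between libraries (at least 100 UMIs) and between mature and immature cells in both libraries (at least 100 UMIs in each), listed genes with at least 200 UMIs and the markers. *Clec3b*, *Xist* and *Pi16* were named as well, *Clec3b* without reaching these limits on UMIs. The genes furthest apart among members of at most 10000 UMIs, the Y-linked genes, *Cebpe*, *Ctsc* and *Rsad2* were chosen after their values were seen. A few genes that the rule names are not reported here. B-lineage cells were cells under 3% calprotectin UMIs with 3 or more of 8 B-cell markers and fewer than 3 of 5 monocyte markers. The members, lists and rule were chosen with earlier results of these data known. Alternatives (13 planned, 1 added) are described at the end. Python 3.11.15, numpy 2.4.6, scipy 1.17.1 and pandas 2.3.3 were used, and ratios and thinning were tested on simulated data.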

Additional observations from a re-analysis of the deposited data

How the results depend on the processing

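With 1 library per condition, intervals hold counting error only. The 150 intact and 161 callus mature neutrophils became 87 and 104 under stricter limits on detected genes and mitochondrial share, and stayed within 1.5 times under the other selections. Genes at least 2-fold higher and lower in callus over intact members (256 and 29) were 67 and 17 without members over 10000 UMIs, a setting added after seeing the data. They were 91 and 18 without cells above percentile 95 of UMIs, 93 and 17 with at least 10% calprotectin UMIs, 65 and 14 in thinned cells, 741 and 105 from 20 UMIs, 74 and 6 from 200 UMIs, and 112 and 5 by the interval bound. Without cells holding at least 2% of other types' marker UMIs 149 were higher. With rule and mitochondrial genes left out of the total, 183 were higher and 56 lower, and the median of all genes went from 0.13 to −0.05.

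Counts of mature over immature cells (610 higher and 403 lower in intact, 1061 and 1631 in callus) were 293, 91, 508 and 558 in thinned cells, 224, 94, 529 and 720 from 200 UMIs, 330, 152, 627 and 380 by the interval bound, and in intact 954 and 919 from 20 UMIs. With the rule and mitochondrial genes out of the total they were 408 and 609 in intact (median from 0.18 to −0.11) and 798 and 2231 in callus (from −0.18 to −0.45), so the split of higher and lower genes depends on that total.

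*Hbb-bs*, *Hbb-bt*, *Hba-a1* and *Hba-a2* reversed to log2 −2.03, −1.82, −1.68 and −2.18 without cells above percentile 95, to −2.12, −1.86, −1.71 and −2.18 without cells rich in other types' markers, and to −1.98, −1.73, −1.62 and −2.20 without members over 10000 UMIs, where *Prdx2* came to −0.32. The cause was not tested. No paired analysis was possible because each condition has 1 library.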
